A study of Mus musculus with 6 samples.

Results

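The telocyte-like fibroblasts described here are 111 wells, each meant to hold 1 cell, out of 928 wells that passed the filters and 2304 wells in all. Wells were chosen by the transcripts they held: at least 3 of the 6 genes *Mmp10*, *Nrg1*, *Inhba*, *Wnt5a*, *Bmp7* and *Il1rl1* had to be detected, and more of them than of each of 3 other sets of 6 genes. Set A (*Sfrp4*, *Ptx3*, *Gdf10*, *Pcolce2*, *Pi16*, *Inmt*) marks inflammatory fibroblasts, set B (*Cxcl13*, *Edil3*, *Tnfsf13b*, *Hapln1*, *Cntn1*, *Grem1*) a further group of fibroblasts, and set D (*Rgs5*, *Notch3*, *Rgs4*, *Cspg4*, *Mcam*, *Esam*) pericytes. Wells with 3 or more counts of *Myoc* and *Angptl7* were left out. The 26 genes of this rule are therefore described and not tested. Of the other wells, 109 met the same criterion for set A, 145 for set B and 92 for set D, and the 254 wells of sets A and B served as the other fibroblasts.

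The cells came from colon tumors that were induced in mice with the carcinogen azoxymethane and the colitis-inducing agent dextran sulfate sodium (AOM/DSS). All 6 mice carried the floxed allele *Zeb1* fl/fl. The 3 FibCtrl mice (1, 3 and 4, numbered by plate) were negative for the Col6a1-Cre transgene, and the 3 FibΔZeb1 mice (2, 5 and 6) were Col6a1-Cre positive, so that *Zeb1*, which encodes an EMT transcription factor, was deleted in fibroblasts that use the *Col6a1* promoter. Viable cells negative for EPCAM, CD45 and CD31 were index-sorted into 1 plate of 384 wells per mouse and sequenced by SORT-seq, which reads the 3′ ends of mRNA and counts molecules by barcodes. Plate and mouse are thus the same unit, and the plate of mouse 6 carried another sequencing run code than the other 5. The mice were C57BL/6 littermates of both sexes and matched age; the age itself was not given in the sources used here.

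Telocytes are subepithelial fibroblasts with long processes and high PDGFRA that lie directly under the intestinal epithelium. In the healthy gut they are known for the transcription factor FOXL1 and as a source of non-canonical WNT5A and of bone morphogenetic proteins (BMPs), which favor differentiation of the epithelium, and of the EGF-family ligand neuregulin 1 (*Nrg1*). Cancer-associated fibroblasts (CAFs) are commonly divided into contractile, matrix-producing myCAFs and cytokine-secreting iCAFs.

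Member wells had a higher median depth than all wells kept of the same plate in each of the 6 mice. They held a median of 15141 transcripts (range 1222 to 36122), with medians between 12250 and 17040 in the 6 mice. The pooled medians were 12782 in the other fibroblasts and 955 in the 214 wells with neutrophil genes. In mice 4 and 6 the other fibroblasts were deeper than the members, at 15168 against 12250 and 16943 against 15773 transcripts. All 384 well names recur on every plate by design. The 10 fibroblast markers (collagen I, III and VI genes, *Dcn*, *Lum*, *Pdgfra*, *Vim*, *Sparc*) summed to 40530 to 65381 counts per 1000000 (CPM) over the members of a mouse, whereas the endothelial list reached at most 48.6 CPM with *Pecam1*, *Cdh5*, *Kdr* and *Plvap* at 0, and the macrophage list at most 28.1 CPM with *Lyz2* at 0. Neutrophil markers summed to 50.9 to 300.1 CPM in members and 48.4 to 511 CPM in other fibroblasts. Epithelial keratins and related genes summed to 13.0 to 462 CPM in members and 5 to 311 CPM in other fibroblasts. Squamous markers summed to 18.8 to 203 CPM in 5 mice and to 612 CPM in mouse 1, where *Krt5* was at 180.3 and *Krt14* at 207 CPM, against at most 67.4 CPM for the list in other fibroblasts. Glial, mesothelial and Cajal cell lists stayed at or under 8.71, 82.5 and 65.6 CPM, with *Kit* at 0.

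Of the members, 17 had exactly 3 of the 6 genes, 28 had 4, 24 had 5 and 42 had all 6. BMP7 and WNT5A transcripts were almost always present, with *Bmp7* in 98.2% and *Wnt5a* in 96.4% of member wells, followed by *Nrg1* (82.0%), *Inhba* (71.2%), *Mmp10* (69.4%) and *Il1rl1* (64.9%). Wells just inside the threshold (exactly 3 genes, 17 wells) had pooled levels of 188 CPM *Wnt5a*, 267 CPM *Bmp7*, 294 CPM *Nrg1* and 749.8 CPM *Pdgfra*. Wells just outside it (exactly 2 genes and above the other sets, 13 wells) had 142, 262, 109 and 721 CPM of these genes, a median of 6510 against 12444 transcripts, and 745 against 47.1 CPM of the neutrophil gene *S100a9*. A further 17 wells with 3 or more of the genes were tied with another set, and 29 were below another set. In addition, 1 well was left out for its *Myoc* and *Angptl7* counts.

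The number of member wells differed widely between mice within each genotype. There were 20, 7 and 33 members in FibCtrl mice 1, 3 and 4, and 36, 8 and 7 in FibΔZeb1 mice 2, 5 and 6. As a share of the wells kept, members made up 9.76%, 6.36% and 30.3% in FibCtrl and 13.8%, 4.04% and 15.2% in FibΔZeb1 mice. The groups overlapped, with means of 15.5% ± 12.9 (SD, n = 3) and 11% ± 6.10 (n = 3), and the difference of -4.43 percentage points was smaller than the spread between mice (exact two-sided permutation test, p = 0.8; the smallest p that 3 against 3 mice allow is 0.1). Neutrophil wells filled much of this denominator in some mice, from 8 of 205 in mouse 1 to 86 of 110 in mouse 3. Counted among fibroblast-type wells only (members and sets A and B), the shares were 17.2%, 46.7% and 70.2% in FibCtrl and 30% (36 of 120 wells), 14.5% and 58.3% in FibΔZeb1 mice. The means of 44.7% ± 26.5 and 34.3% ± 22.2 (n = 3 each) differed by -10.4 percentage points (exact permutation test, p = 0.7). Mouse 4 set the sign of both differences: without it they were 2.97 and 2.34 percentage points. The denominators were small in mouse 3 (15 fibroblast-type wells) and mouse 6 (12 wells), with exact 95% binomial intervals of 21.3% to 73.4% and 27.7% to 84.8%, which cover counting error only.

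**Figure D1:**
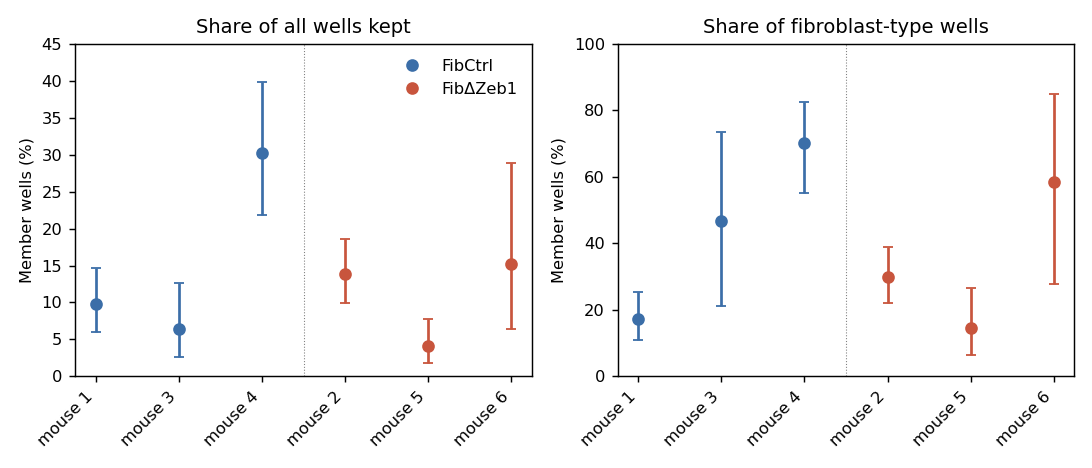
Percentage of member wells per mouse among all wells kept (left) and among fibroblast-type wells (right), with exact 95% binomial intervals as bars; blue, FibCtrl, red, FibΔZeb1. Mouse 4 has the highest share in both panels (30.3% and 70.2%), and the genotypes overlap.

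Among the genes of the rule, *Wnt5a* and *Bmp7* varied least across mice. *Wnt5a*, the non-canonical Wnt ligand, lies at chr14:28504750-28527448 on the plus strand of GRCm38. It was at 545, 376 and 775 CPM in the members of FibCtrl mice 1, 3 and 4 and at 566, 585 and 586 CPM in those of FibΔZeb1 mice 2, 5 and 6. *Bmp7*, a BMP ligand at chr2:172868012-172940321 on the minus strand, was at 626, 413 and 631 CPM in FibCtrl and 508, 488 and 688 CPM in FibΔZeb1 mice. The genotype groups overlapped for both genes. *Nrg1* (chr8:31814551-32884029, minus strand) had 474, 263 and 335 CPM in FibCtrl and 625, 323 and 174 CPM in FibΔZeb1 mice.

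*Mmp10*, *Inhba* and *Il1rl1* varied by more than an order of magnitude. *Mmp10* (stromelysin 2, a matrix metalloproteinase at chr9:7502352-7510240, plus strand) was at 1064, 225 and 2060.1 CPM in FibCtrl and 739, 984 and 5411 CPM in FibΔZeb1 members. For *Inhba*, the activin A subunit at chr13:16011851-16031621 on the plus strand, the levels were 469.9, 113 and 1099 CPM and 223, 824 and 4046 CPM. *Il1rl1*, which encodes the IL-33 receptor ST2 (chr1:40429570-40465415, plus strand), was at 1344, 272 and 1466 CPM and at 754, 1354 and 4095 CPM. For each of these genes mouse 3 was lowest and mouse 6 highest, and mice of both genotypes lay in between.

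The rule genes were not confined to member wells. *Bmp7* was detected in 51.0% and *Wnt5a* in 40% (58 of 145) of set B wells, against 12.8% and 23.9% in set A and 6.52% and 23.9% in set D. In neutrophil wells, at a median of 955 transcripts, each was found in 0.467% (1 of 214). *Nrg1* was detected in 26.9% of set B wells and in 0 of 109 set A wells, which allows a share of up to 2.75% at 3 wells of the 109 and up to 3.33% by the exact 95% interval. Both limits pool wells over mice and cover counting error only. The other 3 genes were rarer in set B than in sets A and D. *Mmp10* was detected in 3.45% of set B, 5.5% of set A and 7.61% of set D wells, *Inhba* in 10.3%, 11.9% and 26.1%, and *Il1rl1* in 11%, 12.8% and 15.2%.

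Genes outside the rule bore on the name. Of 20 telocyte genes that the rule did not use, 17 reached 50 CPM in members or other fibroblasts, and 8 were higher in members: *Bmp2*, *Bmp5*, *Dll1*, *Foxf2*, *Foxl1*, *Pdgfra*, *Sox6* and *Tgfbi*. None was lower, and the median difference of the 17 was 1.27 on the log2 scale, against 0.10 for all 3980 genes at this level. A gene is called higher here if its mean CPM over the 6 mice was at least 2-fold above that of the other fibroblasts and it was higher in all 6 mice; 269 of 3980 genes (6.76%) met this and 216 (5.43%) were lower by the same measure. These contrasts describe wells picked by their expression and carry no test. The make-up of the reference differed between mice: set A gave 41 of 96 wells in mouse 1, 16 of 84 in mouse 2, 4 of 8 in mouse 3, 5 of 14 in mouse 4, 42 of 47 in mouse 5 and 1 of 5 in mouse 6.

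*Foxl1*, the transcription factor that defines subepithelial telocytes (chr8:121127940-121130644, plus strand), was at 81.5, 46.9 and 75.2 CPM in the members of FibCtrl and 45.7, 78.4 and 47.3 CPM in those of FibΔZeb1 mice. In other fibroblasts it was at 0 to 14 CPM, below the members of every mouse. It was detected in 43.2% of member wells, 0.917% of set A, 11.7% of set B, 17.4% of set D and 0.935% of neutrophil wells. With each well thinned to 2000 barcodes, *Foxl1* remained in 10.9% of 110 members, against 0 of 109 wells of set A (up to 2.75% at 3 wells), 1.38% of set B, 4.49% of set D and 2 of 28 neutrophil wells.

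*Pdgfra*, the surface receptor that is high in telocytes (chr5:75152292-75198215, plus strand), was at 976 to 1626 CPM in members and at 396 to 729.7 CPM in other fibroblasts of the 6 mice, a 2.44-fold difference in means with no overlap. *Sox6*, a transcription factor of telocytes, had 68.4, 159 and 99.4 CPM in FibCtrl and 27.5, 8.71 and 7.89 CPM in FibΔZeb1 members, and at most 4.67 CPM in other fibroblasts. *Dll1*, a Notch ligand, was 3.64-fold and *Foxf2*, a mesenchymal forkhead factor, 3.21-fold higher in members. *Tgfbi*, an adhesion protein of the matrix, stood at 1347, 1233 and 1326 CPM in FibCtrl and 968, 1109.8 and 1965 CPM in FibΔZeb1 members, against 35.8 to 125 CPM in other fibroblasts. Of the remaining list genes, *Foxf1* (357 ± 53.2 against 187 ± 69.8 CPM, SD over 6 mice) and *Gli1* (51.1 ± 33.0 against 43.6 ± 36.4 CPM), a Hedgehog target, did not reach the criterion. *Vstm2a* was at 0 in all members.

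**Figure D2:**
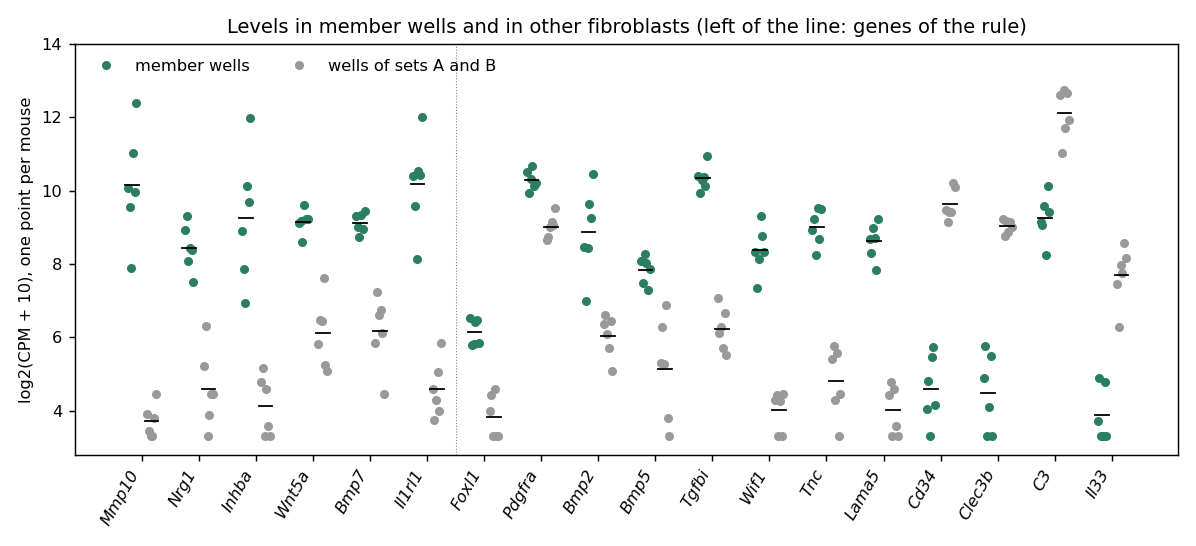
Levels as log2(CPM + 10) of the 6 genes of the rule (left of the dotted line) and of 12 genes outside it in the members (green) and in the wells of sets A and B (grey), 1 point per mouse with the mean as a bar. *Foxl1*, *Pdgfra*, *Bmp2*, *Tgfbi*, *Wif1*, *Tnc* and *Lama5* lie higher and *Cd34*, *Clec3b*, *C3* and *Il33* lower in the members of all 6 mice.

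BMP ligands other than *Bmp7* were also high. *Bmp2* was at 346, 338 and 792 CPM in FibCtrl and 117, 603 and 1407 CPM in FibΔZeb1 members, and at 23.9 to 87.5 CPM in other fibroblasts. *Bmp5* was at 261, 300.3 and 249.8 CPM and at 168, 148 and 221 CPM, a 5.66-fold difference from other fibroblasts. *Bmp4* was abundant in both (1679.5 ± 442 against 1043 ± 506 CPM) and did not meet the criterion. In the list of 22 BMP and TGF-β genes, 13 reached 50 CPM and 6 were higher: besides *Bmp2* and *Bmp5* these were *Inhbb*, an activin subunit (11.3-fold), the inhibitory *Smad6* (3.34-fold), and the BMP target genes *Id1* (2.67-fold) and *Id2* (5.10-fold). None was lower, and the median over the 13 was 1.08 on the log2 scale. *Id3*, another BMP target, differed little (626 ± 108 against 688 ± 144 CPM).

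Among 18 further genes of the Wnt pathway, 7 reached 50 CPM. *Wif1*, a secreted Wnt inhibitor, was higher in members, with 310.1, 272 and 629 CPM in FibCtrl and 153, 429 and 308 CPM in FibΔZeb1 mice against at most 11.9 CPM in other fibroblasts. The secreted antagonists *Sfrp1* (368 ± 307 against 1754 ± 336 CPM) and *Sfrp2* (96.9 ± 75.1 against 537 ± 258 CPM) were lower. The R-spondin genes *Rspo1*, *Rspo2* and *Rspo3*, which amplify canonical Wnt signaling, were at 0 in members of 5, 6 and 3 of 6 mice and at most 18.8 CPM. The median over the 7 genes was 0.63 on the log2 scale.

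The 15 genes furthest above other fibroblasts were of mixed kinds. *Mmp13*, a collagenase, had the largest fold and the widest spread, with 265, 9.38 and 3586 CPM in FibCtrl and 29.0, 694 and 10418 CPM in FibΔZeb1 members. It was detected in 26 of 111 members, so few wells carried it, and other fibroblasts had 0 to 42.1 CPM. *Col7a1*, the anchoring-fibril collagen, was 62.9-fold, *Col6a4* 35.4-fold and *Lama5*, a laminin chain of the epithelial basement membrane, 53.7-fold higher. *Lama5* was at 405, 498 and 410.1 CPM in FibCtrl and 305, 218 and 593 CPM in FibΔZeb1 members and at most 17.5 CPM in other fibroblasts. *Tnc*, the matrix glycoprotein tenascin C (23.7-fold), *Smoc1*, a secreted matrix protein that binds calcium (19.4-fold), the mechanosensitive channel *Piezo2* (22.4-fold), *Pla2g7* (21.7-fold), *Bean1* (75.3-fold), *Eva1a* (45.3-fold) and the homeobox gene *Rhox5* (143-fold, on 4 transcripts in other fibroblasts) followed. *Serinc2* had 97.0 transcripts in members and 2 in other fibroblasts. *Mmp13*, *Wif1*, *Sox6* and *Tgfbi* complete this group. Some of these genes were also found outside the fibroblast sets. *Pla2g7* was higher in neutrophil wells (589 ± 182 CPM) than in members (216 ± 218 CPM, SD over 6 mice). *Tgfbi* was at 391 ± 91.7 CPM in neutrophil wells (SD over 6 mice), below its mean in members. Set D had 245 ± 259 CPM of *Tnc*, 115 ± 105 CPM of *Tgfbi* and 104 ± 73.6 CPM of *Mmp13*. It also had 91.2 ± 57.8 CPM of *Piezo2* and 88.6 ± 45.8 CPM of *Lama5* (SD over 4 mice). These 5 means were below those of the members.

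Most collagen and basement membrane genes did not meet the criterion, by which 6.76% of all 3980 genes were higher and 5.43% lower. Of 14 collagens, *Col5a3*, *Col6a3*, *Col6a4* and *Col7a1* were higher and none lower (median 0.51 on the log2 scale). *Lama5* was the 1 gene of 12 in the basement membrane list that met the criterion (10 at 50 CPM, median 0.69). *Col6a1*, whose promoter drives the Cre transgene, was at 1817 to 3550.0 CPM in members and 1471 to 2079.7 CPM in other fibroblasts. In the list of 17 matrix proteases and inhibitors, *Mmp13* was higher and *Adamts1* lower among 13 genes at 50 CPM (median -0.04), and *Mmp2*, gelatinase A, was at 1787 ± 433 against 1839 ± 438 CPM.

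Contractile genes stood higher in members. Of the 12 myCAF genes, 10 reached 50 CPM and 8 were higher (*Acta2*, *Tagln*, *Myl9*, *Mylk*, *Tpm1*, *Tpm2*, *Tnc*, *Col12a1*), with a median of 2.60 on the log2 scale. *Acta2*, smooth muscle actin, was at 2558, 1913 and 1259 CPM in FibCtrl and 1126, 856 and 363 CPM in FibΔZeb1 members, against 11.9 to 319.6 CPM in other fibroblasts. The pericyte set D had 3860.4 ± 1206 CPM (SD over the 4 mice with at least 5 wells), above the members. Pooled over mice, *Acta2* was detected in 87.4% of member wells, 78.6% of set B and 45.9% of set A wells. With each well thinned to 2000 barcodes, these shares were 61.8%, 36.6% and 9.17%. Of all 269 genes higher in members, 144 were also higher against set B alone. Whether each of the 8 myCAF genes was among them is not reported here. The smooth muscle list moved with these genes: it summed to 149.8 to 988 CPM in members and 71.7 to 198 CPM in other fibroblasts, with *Actg2* at 208 ± 205 and *Myh11* at 99.7 ± 112 CPM, while *Des* was at most 8.71 and *Cnn1* at most 35.9 CPM. Its part in the result was not tested. *Postn*, periostin, was not higher (1101 ± 355 against 1722 ± 678 CPM).

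Inflammatory fibroblast genes were low. Of 14 iCAF genes outside the rule, all of which reached 50 CPM, 11 were lower in members and none higher, with a median of -2.15 on the log2 scale. *C3*, the complement component, was at 296 to 1102 CPM in members against 2063 to 6804 CPM, *Cd34* at 0 to 43.6 against 560.1 to 1179 CPM, and *Clec3b* at 0 to 44.2 against 424 to 594 CPM. Set A was chosen by genes of this kind, which bears on the contrast. *Il6* was at 0 CPM in the members of 3 mice and reached 105 CPM in mouse 5, against 83.6 to 443 CPM. Among the genes furthest below other fibroblasts were *Lrrn4cl*, *Npy1r*, *Pianp*, *Cd34*, *Has1* (a hyaluronan synthase), *Il33* (the ligand of ST2), *Col8a1* and *Clec3b*, with folds from 75.6 to 29.3, together with *AW551984*, which had 2 transcripts in members and 211 in other fibroblasts. *Il33* was thus near 0 (0 to 19.8 CPM) where its receptor gene *Il1rl1* was high, and stood at 67.6 to 373 CPM in other fibroblasts. In the 4 mice with at least 5 wells of each set, those transcripts came from set A (418 ± 137 CPM, SD) and hardly from set B (9.24 ± 10.9 CPM). Mouse 3 had 417 CPM in set A and 21.7 CPM in set B. In mouse 6, with 1 well of set A and 4 of set B, the levels were 118 and 315 CPM.

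Cytokines and chemokines split. Of 24 genes, 19 reached 50 CPM, 3 were higher and 6 lower. *Cxcl14* was at 2396, 1017 and 3492 CPM in FibCtrl and 1934, 1444 and 3254 CPM in FibΔZeb1 members, 11.8-fold above other fibroblasts. *Il11*, an IL-6 family cytokine, was at 321, 188 and 946 CPM and at 208, 1085 and 1089 CPM, against 0 to 142 CPM. *Ptgs1*, cyclooxygenase 1, was 2.71-fold higher. *Ccl2*, *Ccl7*, *Cxcl12*, *Il33*, *Il6* and *Tnfaip6* were lower, *Tnfaip6* by the most after *Il33* (71.7 ± 61.6 against 1097 ± 565 CPM). The median over the 19 genes was -0.01.

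**Figure D3:**
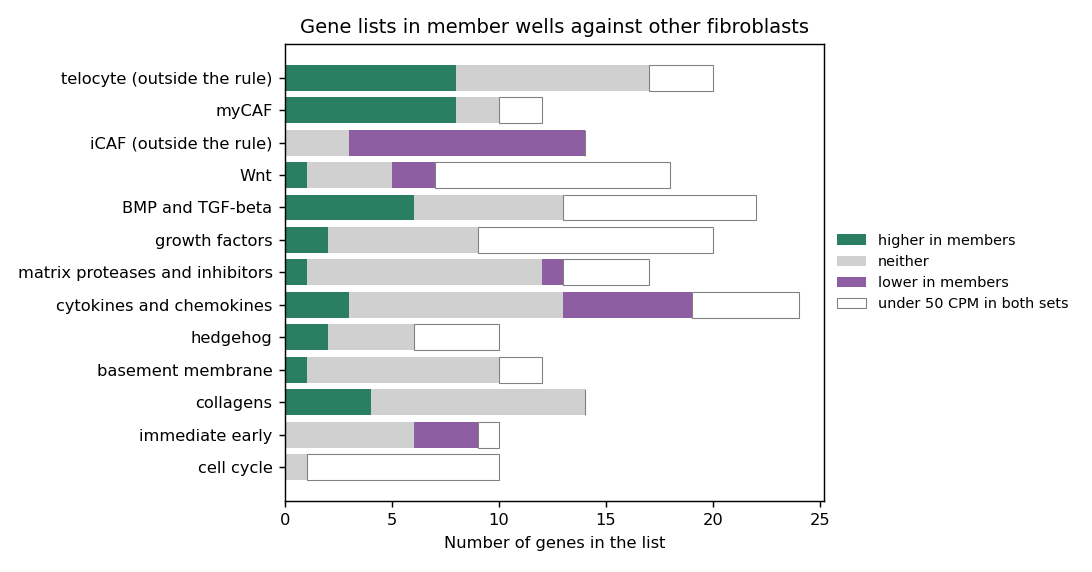
Number of genes per list that were higher (green), lower (purple) or neither (grey) in members than in the wells of sets A and B, and that stayed under 50 CPM in both (white). The telocyte and myCAF lists have 8 genes higher and 0 lower each, and the iCAF list 0 higher and 11 lower.

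Within the members, *Mmp10*, *Inhba* and *Il1rl1* were detected together in 45 wells, in pairs in 34 wells and singly or not at all in 32 wells; 42 wells had all 6 rule genes and 7 wells had none of these 3, 5 of them in mouse 2. All 3 were found in 50%, 28.6% and 30.3% of the members of FibCtrl mice 1, 3 and 4 and in 44.4%, 25% and 71.4% of those of FibΔZeb1 mice 2, 5 and 6. This division was made after the values had been seen, rests on genes of the rule and follows depth in part (medians of 16052 transcripts with all 3 and 12711 with at most 1), so that the values here are a description. Pooled over the wells, *Mmp13* was at 3853 CPM with all 3 genes and 12 CPM with at most 1, *Il11* at 1061 and 64.8 CPM, *Ptgs2* (cyclooxygenase 2) at 728 and 69.5 CPM, *Bmp2* at 738 and 139 CPM, *Lama5* at 585 and 139 CPM, and *Tgfbi* at 1673 and 583 CPM. *Foxl1* was at 84.3 and 28.8 CPM and *Wnt5a* at 857 and 281 CPM.

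Other genes went the opposite way. *Gsn*, which encodes the actin-severing protein gelsolin, was at 321 CPM with all 3 genes and 1652 CPM with at most 1, and *Ogn*, a small matrix proteoglycan, at 202 and 1335 CPM. Both were picked after their values were seen. *Dpt* was at 602 and 1560.1 CPM and *Cxcl12* at 256 and 817 CPM. By contrast, *Bmp5* (233 and 185 CPM) and *Bmp4* (1875 and 1358 CPM) were higher with all 3 genes. *Wif1* was at 217 and 240.0 CPM in the pooled wells, and lower with all 3 genes in both mice that had enough wells of each class (120.4 against 192 CPM in mouse 2, 255 against 724 CPM in mouse 4). The 2 mice with at least 3 wells in each class, mice 2 and 4, had the same direction for *Mmp13*, *Il11*, *Ptgs2*, *Bmp2*, *Lama5*, *Tgfbi*, *Foxl1* and *Wnt5a* (higher with all 3) and for *Gsn*, *Ogn*, *Dpt* and *Cxcl12* (lower). *Mmp13* was at 54.2 against 3.90 CPM in mouse 2 and at 11045 against 27.8 CPM in mouse 4. Both lower values lay at the detection floor of the wells with at most 1 gene, as did *Il11* at 27.8 CPM in mouse 4. *Lama5* was at 437 against 121 CPM in mouse 2 and at 585 against 445 CPM in mouse 4.

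**Figure D4:**
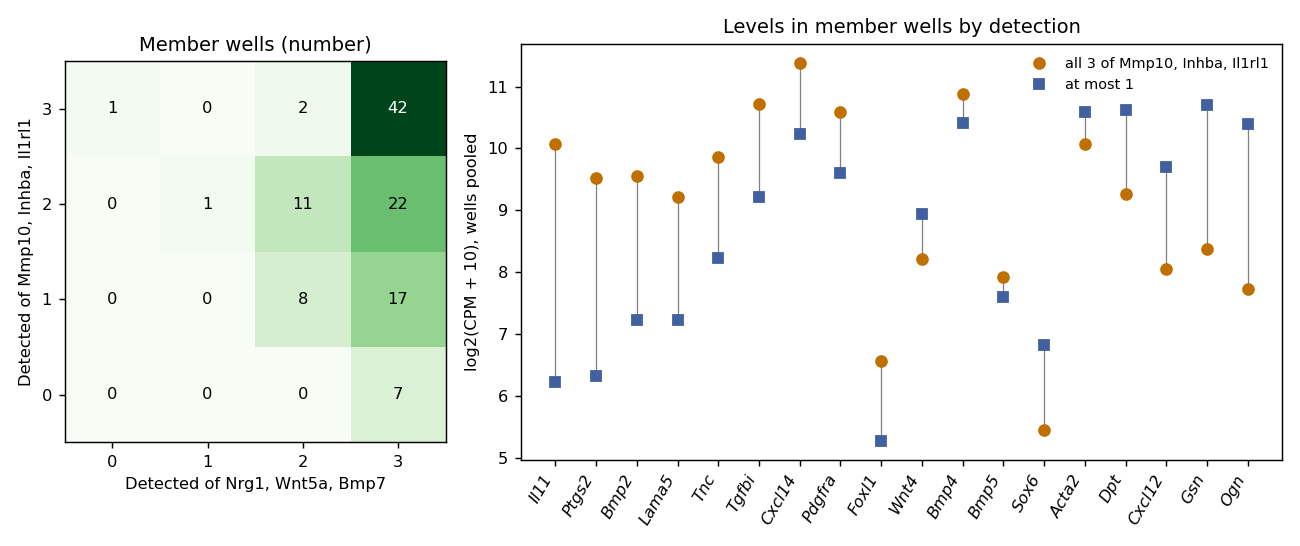
Left, number of member wells by how many of *Mmp10*, *Inhba* and *Il1rl1* (rows) and of *Nrg1*, *Wnt5a* and *Bmp7* (columns) were detected; 42 wells have all 6. Right, pooled levels as log2(CPM + 10) in the 45 wells with all 3 of the first genes (orange circles) and the 32 wells with at most 1 (blue squares), with *Il11* and *Ptgs2* higher and *Gsn* and *Ogn* lower in the former.

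To ask whether loss of *Zeb1* altered these cells, transcripts were summed over the members of each mouse and compared between genotypes. *Zeb1* itself was at 88.0, 122 and 97.0 CPM in FibCtrl mice 1, 3 and 4 and at 27.4, 17.4 and 86.7 CPM in FibΔZeb1 mice 2, 5 and 6. Mice 2 and 5 were thus well below and mouse 6, with 7 members, just below the FibCtrl range. The log2 difference was -1.31 ± 0.48 (SE; unadjusted p = 0.0222, adjusted p = 1 in edgeR's quasi-likelihood test), and it ranged from -0.88 without mouse 2 (unadjusted p = 0.175 in edgeR) to -1.91 without mouse 6 when 1 mouse was left out. Its unadjusted p was above 0.05 in 5 of these 6 fits, the exception being the fit without mouse 6. In other fibroblasts *Zeb1* was at 111, 86.9 and 79.4 CPM in FibCtrl and 70.9, 95.1 and 59.7 CPM in FibΔZeb1 mice. Which part of the gene is deleted was not given in the sources used here, and 3′ reads can come from the recombined allele, so these levels do not check the deletion.

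No gene passed the adjusted threshold of 0.05 between genotypes in members (0 of 3988 tested, 0.0%; edgeR quasi-likelihood test with Benjamini-Hochberg adjustment). At an unadjusted p under 0.05 there were 134 genes (3.36%), of which 74 (1.86%) were lower and 60 (1.5%) higher in FibΔZeb1 members. DESeq2 called 8 genes on the same sums and had 97 at an unadjusted p under 0.05 (the 8 were *Procr*, *Mylk*, *Pdlim3*, *Col4a5*, *Myl9* and *Odc1* lower, *Tceal6* and *Olfr1033* higher). The genes named here did not pass the edgeR test, and their values are given as measured.

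Some contractile genes were at lower levels in FibΔZeb1 members, without passing the adjusted threshold. Of 9 myCAF genes in the fit, *Mylk*, *Myl9*, *Tagln* and *Acta2* had an unadjusted p under 0.05, and in all 4 the 3 FibΔZeb1 mice lay below the 3 FibCtrl mice; over all genes, 243 of 3988 (6.09%) were separated in this direction and 130 (3.26%) in the other. *Mylk*, myosin light chain kinase, was at 722, 619.8 and 525 CPM in FibCtrl and 230.4, 157 and 126 CPM in FibΔZeb1 members (log2 difference -1.77 ± 0.30 SE, adjusted p = 0.247 in edgeR). *Tagln*, transgelin, was at 699.9, 791 and 670.2 CPM and at 230.4, 262 and 23.7 CPM (-1.98 ± 0.56, adjusted p = 1 in edgeR). *Acta2* differed by -1.24 ± 0.42 (adjusted p = 1) and *Myl9*, a myosin light chain, by -1.66 ± 0.34 (adjusted p = 0.394, both in edgeR). *Pdlim3*, an actin-associated protein, was at 196, 423 and 187 CPM and at 59.5, 61.0 and 23.7 CPM (-2.29 ± 0.45, adjusted p = 0.352 in edgeR). The other 5 overlapped between genotypes, among them *Tpm1* (-0.08 ± 0.23), *Tpm2* (-0.23 ± 0.36) and *Tnc* (0.21 ± 0.34). The median over the 9 myCAF genes was -0.23, against 0.02 for all genes tested.

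The smooth muscle list moved in the same direction: it summed to 988, 724 and 293 CPM in FibCtrl and to 320.3, 270.2 and 149.8 CPM in FibΔZeb1 members. *Actg2* was at 432, 499 and 99.5 CPM and at 79.3, 131 and 7.89 CPM, and *Myh11* at 315, 84.4 and 82.5 CPM and at 93.1, 0 and 23.7 CPM. The part of this list in the lower contractile genes was not tested.

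Other genes with the lowest unadjusted p values were of mixed kinds. *Procr*, the endothelial protein C receptor, was at 546, 526 and 484 CPM in FibCtrl and 171, 78.4 and 142 CPM in FibΔZeb1 members (-1.90 ± 0.30, adjusted p = 0.247 in edgeR). *Col4a5*, a basement membrane collagen, was at 75.0, 188 and 104 CPM and at 13.7, 17.4 and 23.7 CPM (-2.73 ± 0.50), and *Emid1* at 166, 131 and 169.8 CPM and at 54.9, 52.3 and 39.4 CPM (-1.60 ± 0.29), both with adjusted p = 0.247 in edgeR. For all 3 genes the genotype groups did not overlap.

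On the higher side were *Tceal6* (9.77, 0 and 4.85 CPM in FibCtrl against 59.5, 52.3 and 142 CPM in FibΔZeb1 members), *Naaa*, a lysosomal amidase (16.3, 9.38 and 17 against 57.9, 78.4 and 63.1 CPM), *Dclk1* (61.9, 122 and 82.4 against 206, 201 and 213 CPM), *Lpar1*, a receptor for lysophosphatidic acid (140.2, 253 and 167 against 314, 401 and 347 CPM), and *Olfr1033* (149.9, 56.3 and 82.4 against 153, 534 and 732 CPM). Their adjusted p values in edgeR were 0.247, 0.406, 0.489, 1 and 0.894. *Tceal6* belongs to a family of closely similar genes among which reads may be split.

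Of the telocyte genes, 17 were in the fit and none passed the adjusted threshold. *Sox6* (-2.29 ± 0.51, adjusted p = 0.489 in edgeR) and *Ednrb*, an endothelin receptor (-1.96 ± 0.64, adjusted p = 1 in edgeR), were lower and *Wnt4* (1.01 ± 0.43, adjusted p = 1 in edgeR) higher at an unadjusted p under 0.05. Levels of *Bmp5*, *Pdgfra*, *Dkk3*, *Sox6* and *Ednrb* in the 3 FibΔZeb1 mice lay below those in the FibCtrl mice, and the median of the 17 genes was -0.23. No telocyte gene was separated in the other direction. Over all 3988 genes tested, 6.09% were separated lower and 3.26% higher, and 3.36% had an unadjusted p under 0.05 in edgeR. *Foxl1* differed by -0.36 ± 0.37 and *Pdgfra* by -0.38 ± 0.21. Of 8 iCAF genes in the fit, *Ly6a* (0.81 ± 0.30) and *Dpt* (0.89 ± 0.38) were higher and the chemokine *Cxcl12* (-0.89 ± 0.34) lower at an unadjusted p under 0.05, each with adjusted p = 1 in edgeR.

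**Figure D5:**
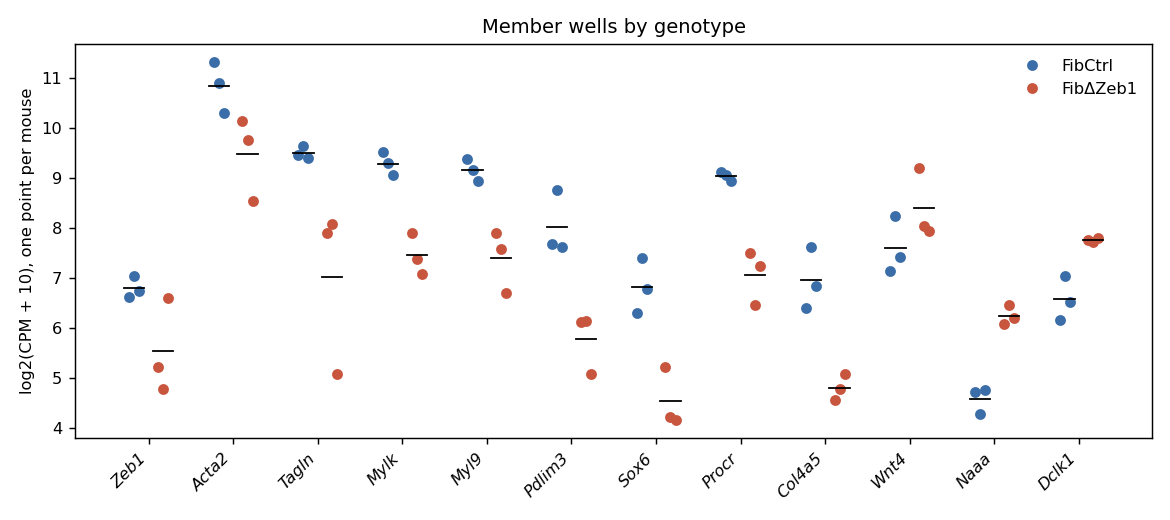
Levels as log2(CPM + 10) of 12 genes in the members, 1 point per mouse with the mean as a bar; blue, FibCtrl, red, FibΔZeb1. *Acta2*, *Tagln*, *Mylk*, *Myl9*, *Pdlim3*, *Sox6*, *Procr* and *Col4a5* lie lower and *Naaa* and *Dclk1* higher in all 3 FibΔZeb1 mice; none passed the adjusted threshold in edgeR.

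Whether the genotype difference of the members departed from that of other fibroblasts was tested as an interaction, with the mouse as a block. In edgeR 0 of 5571 genes (0.0%) passed, 145 (2.6%) had an unadjusted p under 0.05, and DESeq2 called 0. The lowest unadjusted p belonged to *Aspn*, asporin, at 98.0, 301 and 29.1 CPM in FibCtrl and 6.10, 0 and 7.89 CPM in FibΔZeb1 members, whereas other fibroblasts had 193, 232 and 149.7 CPM and 123, 319.5 and 706 CPM (interaction -4.37 ± 0.85 on the log2 scale, adjusted p = 1 in edgeR). *Pdlim3*, *Irf1*, *Slpi* and *Gnai1* followed in this direction and *Kdelr3*, *Atf5*, *Emb*, *Igfbp3* and *Naaa* in the other, all with adjusted p = 1 in edgeR. For *Naaa*, other fibroblasts had 42.5, 48.3 and 56.1 CPM in FibCtrl and 60.8, 43.6 and 35.8 CPM in FibΔZeb1 mice. A difference between members and other fibroblasts in the response to *Zeb1* loss was thus not detectable with 3 mice a group and 7 or 8 members in mice 3, 5 and 6.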

How the data were processed

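SORT-seq plates of sorted AOM/DSS tumor cells from 3 FibCtrl and 3 FibΔZeb1 mice were analysed, 1 plate per mouse. The authors aligned read 2 with BWA to the GRCm38 transcriptome and counted molecular barcodes; Cell Ranger 2.1.1 is also named in the submitters' processing notes, without its role. Each plate has a pair of deposited tables: whole counts of distinct barcodes, and expected counts of transcripts, which the authors estimated from them to correct for molecules sharing a barcode. They are neither normalized nor filtered, and summed to 1575730 to 3699060 per plate without spike-in RNA.

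Wells were kept with 100 to 6000 genes, under 10% mitochondrial transcripts and at most 1 transcript each of *Ptprc* and *Epcam*. A gene counts as detected above 0. CPM were computed from transcripts summed over the wells of a set in a mouse. The members, gene lists and tests were chosen with earlier results of these data known. Genes were named if they belonged to the rule or a list, were among the 15 highest or 10 lowest against other fibroblasts, or, with no call, were the 5 in each direction with the lowest unadjusted p; *Zeb1*, *Odc1*, *Gsn* and *Ogn* were named besides, the last 3 after their values were seen. A gene among the 10 lowest is not reported here. Genes were called higher or lower at a 2-fold difference, 50 CPM and the same direction in every mouse with 5 wells in both sets.

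Sums were rounded and tested with edgeR 4.0.16 (R 4.3.3; TMM, filterByExpr, quasi-likelihood test, Benjamini-Hochberg); DESeq2 1.42.0 was an alternative. Standard errors are the absolute log2 difference over the square root of F. Rule genes, *Ptprc*, *Epcam* and genes named mt- were left out of counts of calls. Shares were compared by exact permutation tests over mice, and their binomial intervals were computed with scipy 1.17.1. The scripts were tested on simulated data. Wells of 1 mouse were not treated as replicates, and no doublet caller was run. Gene positions are those of GENCODE vM21 on GRCm38.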

Additional observations from a re-analysis of the deposited data

How the results depend on the processing

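The differences in member share between genotypes kept their sign under other filters, the barcode counts, a minimum of 2 or 4 rule genes and thinning to 2000 barcodes; leaving out 1 mouse at a time, they ranged from -8.98 to 2.97 points of the wells kept and from -24.1 to 2.34 points of fibroblast-type wells, the positive values being without mouse 4. Thinning left 3 fibroblast-type wells in mouse 3. Counts of genes higher in members moved to 424 at 1.5-fold, 156 at 3-fold, 406 at a floor of 20 CPM and 498 against set A alone (222 shared with the 269), and genes lower in members to 116 at 3-fold and 365 against set A alone (175 shared with the 216). Against set B alone there were 235 higher and 217 lower genes, of which 144 and 121 were shared. Without 1 mouse they were 269 to 326 and 224 to 252.

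Between genotypes, DESeq2 called 8 genes, edgeR without a filter on low counts 67, and edgeR on the 3 mice with at least 10 members 37, where FibΔZeb1 was mouse 2 alone and its spread was taken from the FibCtrl mice. For the interaction the last 2 settings gave 9 and 3 genes. The cause of these differences was not tested. All other settings, each mouse left out included, gave 0 calls in both comparisons. Of 17 genes followed through these settings (the 5 of lowest p in each direction, *Zeb1*, *Acta2*, *Tagln*, *Myl9*, *Sox6*, *Foxl1* and *Pdgfra*), none changed direction between genotypes in any setting in which it was tested; *Tceal6* and *Naaa* passed the filter on low counts in 13 of 17 settings, *Foxl1* in 14, and *Col4a5* and *Sox6* in 16. Those of lowest p were picked on these same data, so their stable direction is partly built in. *Mmp13*, which was not among the 17, did change direction. Its log2 difference was 1.51 in the main fit and 1.42 without the filter on low counts, but -5.95 on the 3 mice with at least 10 members. No paired analysis was possible because the labels give the mice no replicate numbers. The sex of the mice was not a term in any fit. On the 3 mice with at least 10 members the Y-linked gene *Ddx3y* differed by -8.01 on the log2 scale between genotypes. Precision is limited by 3 mice a group and by 7 or 8 members in 3 of the mice.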

Other observations

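Growth factors for epithelium and vessels were in part shared with other fibroblasts. Of 20 genes, 9 reached 50 CPM, *Igf2* (72.4 ± 47.6 against 12 ± 10.5 CPM, SD over 6 mice) and *Mdk*, midkine (102 ± 46.8 against 34.9 ± 24.3 CPM), were higher and none was lower, with a median of 0.83 on the log2 scale. *Igf1* was at 1352 ± 787 against 628 ± 259.9 CPM and *Ereg*, an EGF receptor ligand, at 549.5 ± 317 against 499 ± 386 CPM. In the Hedgehog list of 10 genes, 6 reached this level and the targets *Foxf2* and *Foxl1* were higher (median 0.64).

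Of 10 immediate early genes, which respond to stress and dissociation, 9 reached 50 CPM and 3 were lower. *Atf3* (265 ± 146 against 989.6 ± 434 CPM), *Fosb* (1016 ± 373 against 2716 ± 1058 CPM) and *Junb* (831 ± 174 against 1795 ± 427 CPM) met the criterion and the other 6 did not, with a median of -1.05 over the 9. Of 10 cell cycle genes only *Pcna* reached 50 CPM (95 ± 19.7 against 95 ± 18.6 CPM); *Mki67* was at 2.42 to 32.6 CPM in members and 9.65 to 23.9 CPM in other fibroblasts.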
